A study of Drosophila melanogaster with 2 samples.

Results

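The genes described here are the chemosensory receptors and odorant binding proteins of Drosophila melanogaster that could be named on a spotted array. They were chosen by symbol: Obp, Or, Gr or Ir followed by a digit, or a start of Orco, CheA, CheB, Snmp or Os-, among spots annotated with 1 gene symbol. The rule found 21 of 2377 named genes: 20 odorant binding protein genes, of 51 with such a symbol in the RefSeq gene table, and the gustatory receptor gene Gr97a, of 60. No gene of the odorant receptors, the ionotropic receptors or the other groups met the rule.

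Whole adult females of the Oregon-R wild-type strain, 4 to 10 days old, were sprayed in a Potter tower, which settles an even mist on insects, with 2 mL of 99% ethanol or of distilled water. Each RNA extract came from about 240 pooled flies, its pellet was washed with 80% ethanol in both treatments, and 80 µg of total RNA was labelled for a hybridisation. Each of 2 two-colour arrays carried 1 ethanol and 1 water extract, with ethanol in Cy3 on array 1 and in Cy5 on array 2. The time from spray to sampling is 4 h in the series text and 6 h in the labels of array 1, and the labels of array 2 give none.

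Odorant binding proteins are small secreted proteins that fill the lymph around olfactory and taste neurons, where they bind hydrophobic odorants and pheromones. Several are also made outside sense organs, in fat body, glia or the reproductive tract. Odorant, gustatory and ionotropic receptors are the membrane proteins through which the neurons respond. The binding protein LUSH is known for its part in the fly's behaviour towards alcohols, so the family bears on a study of ethanol, although the symbol lush falls outside the rule.

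For every spot the authors' table holds a signed log ratio from each array, read here as log2 because no source used here states the base. The direction is not stated either, and the dyes were exchanged, so a positive ratio is called neither higher in ethanol nor higher in water. Each gene was therefore tested with limma under both codings, with the arrays as deposited and with array 2 turned in sign, the coding that would apply to ratios of Cy5 to Cy3. In a ratio from whole flies, fewer cells of a type and less RNA per cell cannot be told apart. The spots' signal over background was not used here, and whether a gene was detected in these flies is not known.

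The medians of the chemosensory genes lay near 0 on both arrays, with single genes to either side. They were -0.022 on array 1 and -0.011 on array 2, against 0.0089 and 0.010 over all named genes. Leaving out Obp84a, the lowest and highest genes stood at -0.83 and 0.57 on array 1 and at -0.84 and 0.41 on array 2. The median size of the ratio was 0.16 on array 1 and 0.13 on array 2 for the 21 genes, and 0.19 and 0.17 for all named genes.

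No chemosensory gene passed an adjusted p of 0.05 under either coding (limma, Benjamini-Hochberg over 2377 genes), where the share over all named genes was also 0%. The lowest limma adjusted p among the 21 was 0.30 as deposited and 0.94 with array 2 turned. At an unadjusted p under 0.05, limma counted 3 of the 21 as deposited, Obp84a, Obp99a and Obp57c, all negative, against 5.72% of all named genes in either direction with 2.82% negative and 2.9% positive. With array 2 turned it counted 3 again, Obp84a and Obp19d as negative and Obp83cd as positive, against 4% of all named genes, with 1.89% negative and 2.1% positive. The 95% confidence interval of a member's mean reached a median of 0.41 to either side as deposited and 0.42 with array 2 turned. These intervals are not adjusted over genes. A mean smaller in size than the reach of its own interval had an unadjusted limma p above 0.05, which does not show that the gene was unchanged. After adjustment larger means were not called either, such as -0.56 for Obp99a and -1.71 for Obp84a as deposited. A permutation of signs over 2 arrays cannot give a two-sided p below 0.5.

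**Figure D1:**
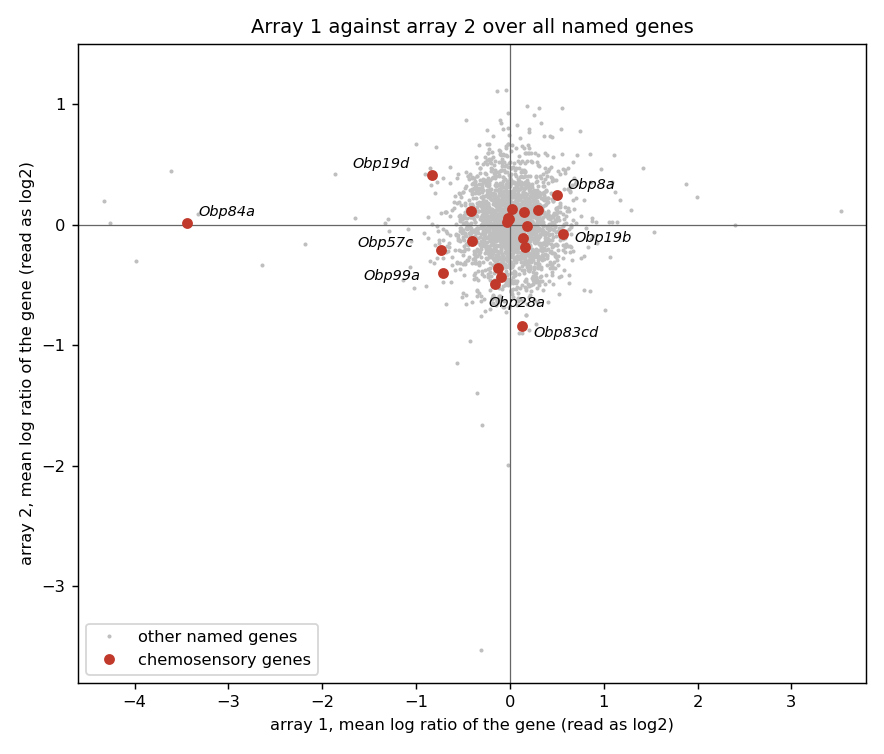
Mean log ratio of each gene on array 1 (horizontal) and array 2 (vertical), for the 21 chemosensory genes in red and all other named genes in grey. Obp84a lies at -3.44 on array 1 and 0.017 on array 2, and the other 20 lie between -0.84 and 0.57 on both axes.

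Signs were split between the arrays about as in the rest of the table. Of the 21 genes, 6 were negative on both arrays, where 24.1% of all named genes were. Another 4 were positive on both, against 26.6%, and 11 had opposite signs, against 49.3%. Of these 11, 5 were positive on array 1 and negative on array 2 (24.4% of all named genes) and 6 the reverse (24.9%). No member reached 1.5-fold (0.585 on the log2 scale) on both arrays, with one sign or with opposite signs, where 0.126% of all named genes did so in each case. Read as natural logs, 0 members reached it with one sign, against 1.51% of named genes, and 1, Obp19d, with opposite signs, against 1.01%. On array 1 alone 4 members reached it, against 6.14% of named genes, and on array 2 alone 1 did, against 4.75%. Across the 21 genes Spearman's rho between the arrays was 0.19, and 0.23 over the 20 without Obp84a, given as a description of genes that share both arrays.

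Each clone was printed as 2 adjacent spots, which gives a first measure of how far a value can be trusted. On array 1 the spots of a member clone differed by a median of 0.24, and 22 of 27 clones had both spots on one side of 0. On array 2 the median difference was 0.39 and 15 of 27 clones had spots of one sign. Spearman's rho between duplicate spots was 0.74 on array 1 and 0.020 on array 2 over these clones, and 0.57 and 0.10 over all 2833 named clones.

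**Figure D2:**
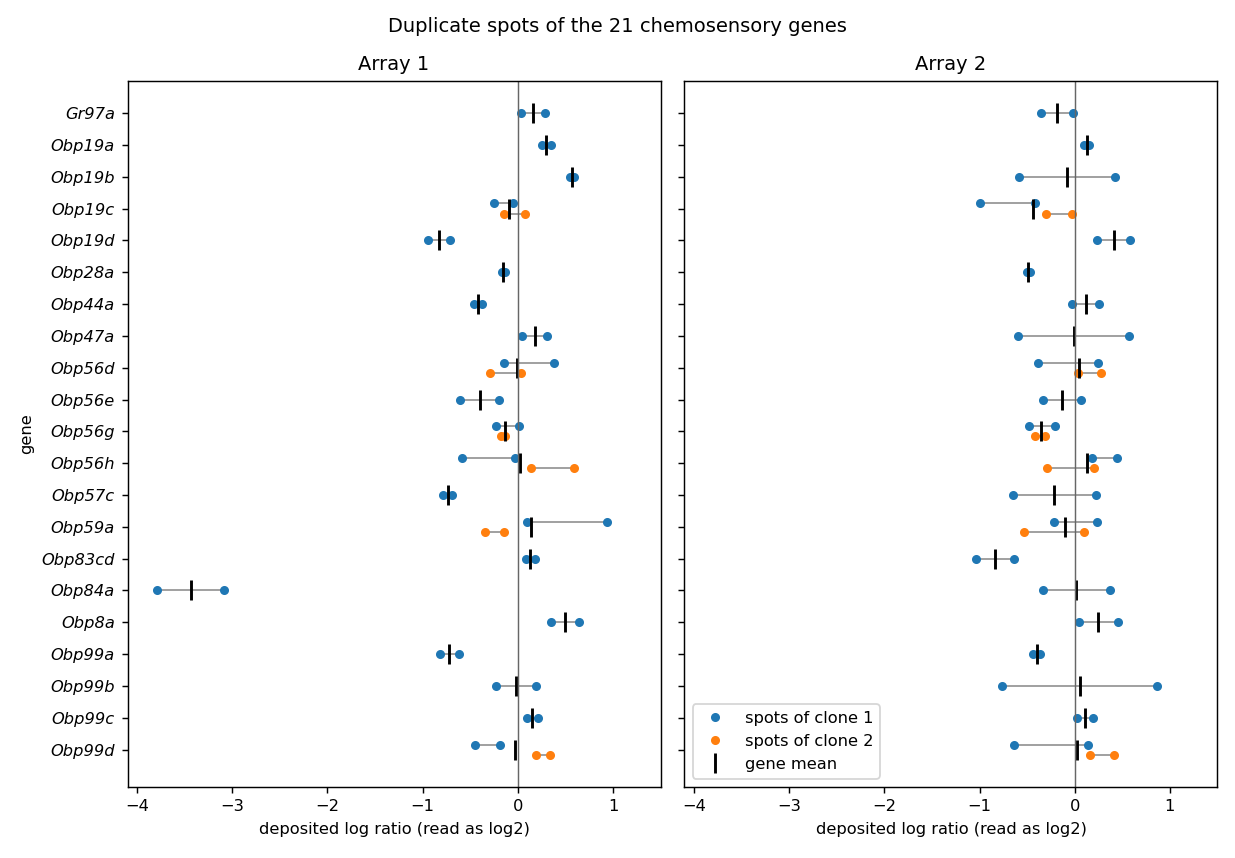
Deposited log ratio of each spot (horizontal) for the 21 genes (vertical) on array 1 and array 2. Dots joined by a grey line are the 2 spots of a clone, and a black bar is the gene mean. Spots of Obp99a and Obp28a lie close together on both arrays, while those of Obp99b on array 2 lie at -0.76 and 0.87.

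The clearest value of one sign on both arrays as deposited belonged to Obp99a, an odorant binding protein gene on chromosome arm 3R. Its spots read -0.62 and -0.82 on array 1 and -0.44 and -0.36 on array 2. All 4 spots were negative, and the spots of an array differed by no more than 0.20. The mean was -0.56 ± 0.22 (SD, n = 2 arrays), with a limma adjusted p of 0.55. The other coding gave a mean of -0.16 and a limma adjusted p of 0.99. Whether the shared sign of Obp99a is a repeat of treatment or of dye depends on the direction of the ratios, which is not known.

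Obp99a was 1 of 4 member clones, of 27, with all 4 spots negative, where 9.53% of all named clones were so. Obp28a, also known as PBPRP5 and abundant in antennal olfactory sensilla, had the closest spots of the set. They read -0.17 and -0.14 on array 1 and -0.50 and -0.47 on array 2. Obp28a was thus negative in all spots but smaller on array 1, and its mean of -0.32 ± 0.24 (SD, n = 2) did not pass (limma adjusted p = 0.99). The remaining clones of this kind were 1 of the 2 clones of Obp56g and 1 of the 2 of Obp19c.

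All 4 spots were positive in another 4 clones, against 10.6% of named clones: those of Obp8a, Obp19a and Obp99c and 1 of the 2 of Obp99d. Obp8a was the largest of these genes, at 0.50 on array 1 and 0.25 on array 2. Its mean was 0.37 ± 0.18 (SD, n = 2), with a limma adjusted p of 0.91, and 0.13 with array 2 turned. Obp19a read 0.30 and 0.13, and Obp99c 0.15 and 0.11, so both were positive on both arrays at small size.

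Obp84a, also known as PBPRP4 and expressed in the antenna, had the largest ratio of the set, on array 1 only. Its array 1 spots read -3.09 and -3.79, and its array 2 spots 0.37 and -0.33. The duplicate spots thus stood on the same side on array 1 and on opposite sides of 0 on array 2. The mean was -1.71 ± 2.44 (SD, n = 2), with a 95% confidence interval from -2.72 to -0.70 and a limma adjusted p of 0.30, or 0.94 with array 2 turned. That interval rests on limma's standard error of 0.47, which draws on the variance of all named genes. The array 2 value of Obp84a lies outside the interval. With robust eBayes its standard error was 1.57 and its unadjusted limma p 0.446.

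The clones that follow Obp84a in the order of the table were also far below 0 on array 1. The next clone read -6.05 and -5.44, and the one after it -5.45 and -4.93, while their array 2 spots lay between -0.67 and 0.016. The clone before Obp84a read -0.17 and 0.42 on array 1. Only 64 of the 16896 spots of array 1 exceeded 3 in size. The part of this run in the value of Obp84a was not tested. Obp84a was called in a single setting, a limma fit over 2833 named clones in place of genes as deposited (adjusted p = 0.000642), and its limma adjusted p ran from 0.10 to 0.996 in the others that kept it.

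The genes of the Obp19 cluster, Obp19a to Obp19d, lie next to each other on the X chromosome in the Release 6 gene table, with 0 genes between neighbours. Their ratios differed. Obp19b, which serves taste detection of amino acids, read 0.57 on array 1 and -0.079 on array 2, where its spots stood at 0.42 and -0.58. Obp19c read -0.092 and -0.43, negative on both arrays.

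Obp19d, also known as PBPRP2 and abundant in olfactory and taste organs, was the member with the clearest opposition between the arrays. Its spots read -0.71 and -0.95 on array 1, and 0.23 and 0.58 on array 2. Both duplicates agreed in sign on each array, and the arrays did not overlap. It was 1 of 4 member clones, of 27, with both spots of one array on the side of 0 opposite to both spots of the other, against 18.8% of named clones. As deposited the mean was -0.21 ± 0.88 (SD, n = 2), with a limma adjusted p of 0.996. In the turned coding it was -0.62 ± 0.30 (SD, n = 2), with an unadjusted limma p of 0.00826 and an adjusted p of 0.94. The mean of Obp19d was thus larger in size than that of Obp99a in the turned coding and smaller as deposited.

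Obp83cd encodes a double-domain binding protein, and its gene lies on arm 3R as does that of Obp84a. Its spots read 0.081 and 0.18 on array 1 and -1.04 and -0.64 on array 2. The mean was -0.35 ± 0.69 (SD, n = 2) as deposited, with a limma adjusted p of 0.996, and 0.48 with array 2 turned, with an unadjusted limma p of 0.042 and an adjusted p of 0.94. Obp83cd was the only member of 1.5-fold or more on array 2. In table order its clone follows a clone of Obp19c, whose array 2 spots were also low, at -0.41 and -0.99. The other clone of Obp19c read -0.30 and -0.031 on array 2.

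**Figure D3:**
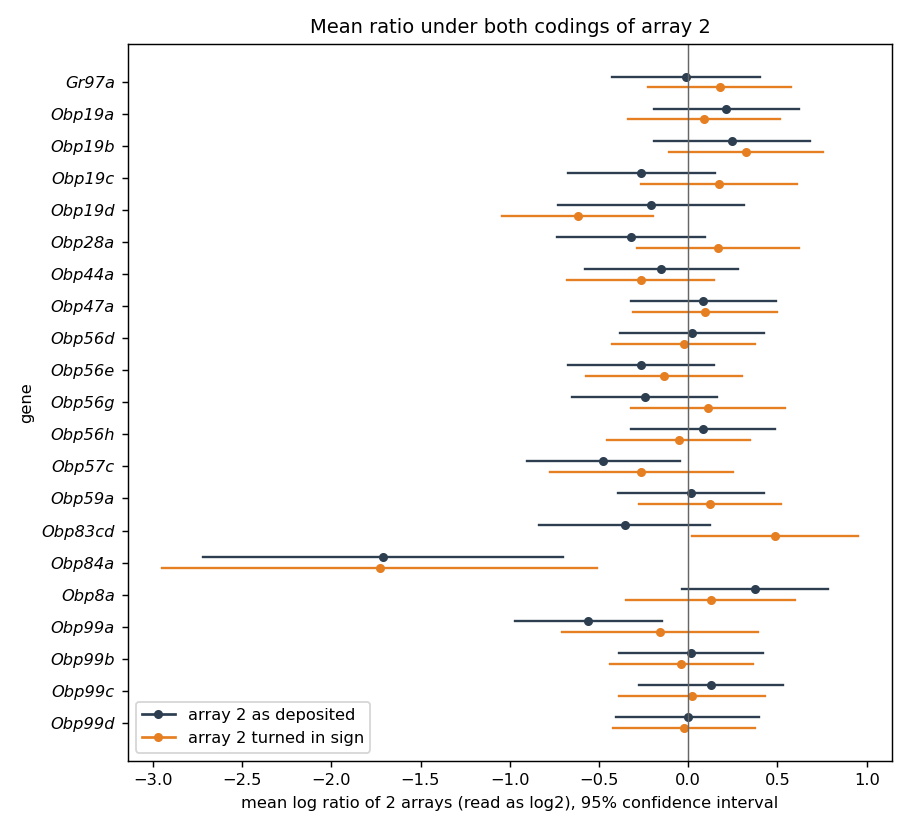
Mean log ratio of the 2 arrays with its 95% confidence interval from limma (horizontal) for each gene (vertical), with array 2 as deposited in dark blue and turned in sign in orange. Intervals clear of 0 belong to Obp84a, Obp99a and Obp57c as deposited, and to Obp84a, Obp19d and Obp83cd with array 2 turned, before any adjustment over genes. The width of an interval draws on the variance of all named genes, not only on the spread of the gene between its 2 arrays.

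In the Obp56 and Obp57 genes of arm 2R the ratios were mostly small. Obp57c had the largest, with -0.79 and -0.69 on array 1 and 0.22 and -0.65 on array 2. Its array 1 spots agreed and its array 2 spots did not. The mean of Obp57c was -0.48 ± 0.37 (SD, n = 2), with an unadjusted limma p of 0.031 and an adjusted p of 0.77, and with array 2 turned it was -0.26.

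Obp56e was negative on both arrays, at -0.40 and -0.13, and so was Obp56g, at -0.13 and -0.36. Obp56g is known for its expression in the male ejaculatory bulb and its part in mating plug formation, and the flies here were labelled as female. Of the other genes, Obp56d read -0.0066 and 0.045, and Obp56h, which affects male mating behaviour, 0.027 and 0.13. The 95% confidence intervals of both means spanned 0, from -0.38 to 0.42 for Obp56d and from -0.32 to 0.48 for Obp56h.

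The cluster of Obp99a, Obp99b, Obp99c and Obp99d on arm 3R also held mixed values. Older names of the last 3 are interchanged in the gene table, so they were matched by Entrez gene identifier. Obp99b, known as tsx from its male-specific expression in fat body of the head, read -0.022 on array 1 and 0.055 on array 2. That near-zero mean on array 2 came from spots at -0.76 and 0.87, the widest pair of the set. Obp99d read -0.027 and 0.019, again as the mean of clones that differed.

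The remaining binding proteins stood close to 0 on at least 1 array. Obp44a, known as a fatty acid binding protein of glia, read -0.42 on array 1 and 0.11 on array 2, with all but 1 of its 4 spots negative. Obp47a read 0.18 and -0.011, with array 2 spots at 0.57 and -0.60. Obp59a, which is needed for humidity sensing, read 0.14 and -0.11. None of these 3 had a limma unadjusted p under 0.05 in either coding.

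Gr97a, a member of the gustatory receptor family, was the only receptor gene in the set. Its spots read 0.29 and 0.038 on array 1 and -0.022 and -0.35 on array 2. The arrays did not overlap and had opposite signs. The mean was -0.012 ± 0.25 (SD, n = 2), with a 95% confidence interval from -0.43 to 0.40, and 0.18 with array 2 turned (limma adjusted p = 0.996 and 0.96).

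Genes with a second clone allowed a check that the duplicate spots do not give. Of the 6 binding protein genes with 2 clones, the clones of Obp19c and Obp56g had one sign on each array. Those of Obp56d, Obp56h, Obp59a and Obp99d had opposite signs on both arrays. Over all 216 named genes with 2 clones, the clones shared a sign in 56.5% on array 1, in 50.9% on array 2 and in 28.7% on each of the arrays.

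The clones of Obp56g were the closest, at -0.11 and -0.15 on array 1 and -0.34 and -0.37 on array 2. Those of Obp99d stood at -0.32 and 0.27 on array 1 and at -0.25 and 0.29 on array 2. One clone of Obp99d was thus negative in mean on both arrays and the other positive on both, so their mean near 0 describes neither. The array 2 spots of the negative clone stood on opposite sides of 0, at 0.14 and -0.64. Clones of Obp59a differed most on array 1, at 0.52 and -0.24. The sequences of the clones were not used here, and hybridisation between family members of similar sequence was not tested.

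**Figure D4:**
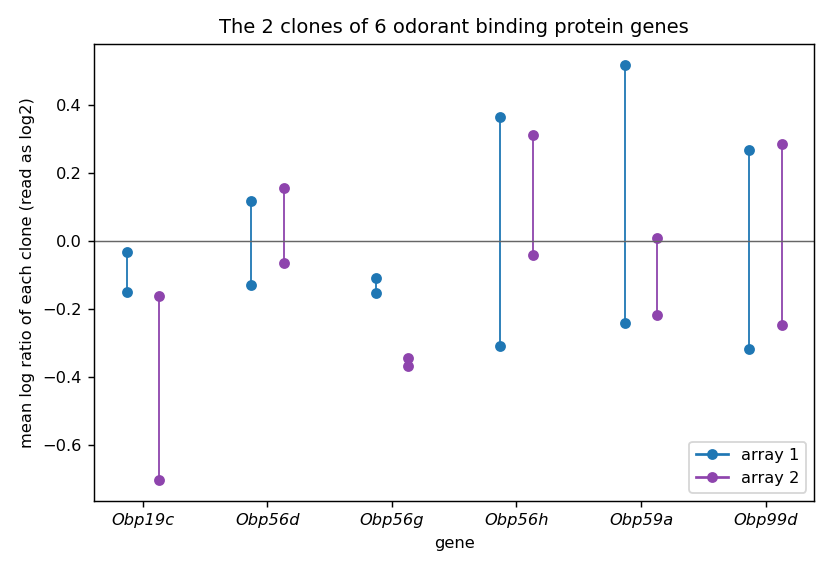
Mean log ratio of each clone (vertical) for the 6 odorant binding protein genes with 2 clones (horizontal), on array 1 in blue and array 2 in purple, with a line joining the clones of a gene. The clones of Obp56g nearly coincide on each array, and those of Obp56d, Obp56h, Obp59a and Obp99d lie on opposite sides of 0.

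Member clones that follow each other in the table were also compared, since array surfaces can vary locally. There were 7 such pairs of different genes, and 5 had one sign on array 1, 5 on array 2 and 4 on each array. Over 1227 pairs of adjacent named clones the shares were 53.1%, 49.9% and 27%. Obp19a and the positive clone of Obp99d were such a pair, at 0.30 and 0.27 on array 1 and 0.13 and 0.29 on array 2. Obp99c and Obp8a were another, both positive on both arrays. The part of position in these values was not tested.

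Genes around chemoreception that are not members also passed no adjustment in either coding (limma), and only part of each list was measured. Measured were 1 of 20 genes on odorant breakdown and the sensillum lymph and 7 of 32 on receptor signalling. On chemosensory neuron fate 7 of 17 were measured, and on pheromones 1 of 7. From a list on odorant breakdown and the sensillum lymph only lush was measured, at -0.26 on array 1 and 0.14 on array 2, a mean of -0.056 ± 0.28 (SD, n = 2) with a limma adjusted p of 0.996. Of 7 receptor signalling genes none passed adjustment in either coding (limma), with 2 positive and 1 negative on both arrays and medians of -0.0080 and 0.19. Largest in mean as deposited were dnc, a cAMP phosphodiesterase tied to olfactory learning, at 1.09 and 0.021, and sNPF, a neuropeptide that tunes olfactory neurons, at -0.0080 and 0.28. The unadjusted limma p of dnc was 0.030 as deposited and 0.054 with array 2 turned, and dnc was the only 1 of the 7 under 0.05. Of all named genes 5.72% were under 0.05 as deposited and 4% with array 2 turned. With array 2 turned dnc, at a mean of 0.54, was followed by the phospholipase C gene Plc21C at -0.39. Of 7 genes of chemosensory neuron fate none passed either (limma), again with 2 positive and 1 negative on both arrays and medians of 0.11 and -0.18. The proneural gene amos read 0.077 and -0.67, and sens, a factor of sensory organ precursors, -0.19 and -0.65, the largest 2 in mean as deposited. With array 2 turned these were dsx, a sex determination gene, at a mean of 0.41, and amos at 0.37. From a list on pheromones only per was measured, at -0.27 and -0.065.

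Markers of tissues that also express binding proteins, or that could differ in amount between extracts, did not pass adjustment in either coding (limma). Only part of each list was measured: 3 of 8 fat body, 3 of 9 eye, 3 of 9 male, 5 of 8 muscle and 3 of 6 neuronal genes. At an unadjusted limma p under 0.05 as deposited were 2 muscle genes of opposite sign, Tm2 (mean 0.70) and TpnC73F (-0.53). So were 2 male genes, also of opposite sign, Acp36DE (0.49) and Mst84B (-0.42). With array 2 turned, 2 different muscle genes were under 0.05, TpnC41C (-0.66) and up (-0.45). The shares over all named genes were 5.72% as deposited and 4% with array 2 turned. The 3 fat body genes lay between -0.17 and 0.26 on array 1 and between -0.58 and 0.23 on array 2. The 3 eye genes ran from -0.36 to -0.18 and from -0.11 to 0.33, and the 3 neuronal genes from -0.11 to 0.14 and from -0.093 to 0.34. The 5 muscle genes ran from -0.85 to 1.29 and from -0.28 to 0.47. Of 3 male accessory gland and testis genes, 2 were positive and 1 negative on both arrays, from -0.38 to 0.66 and from -0.45 to 0.44. The flies were labelled as female, so the values of these male genes cannot be read as an amount of male tissue. The part of any of the marked tissues in the values of the binding proteins was not tested.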

How the data were processed

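The deposited table holds 1 log ratio per spot for each of 2 arrays, 16896 spots in all, and was read as log2. How the authors corrected background and normalized, the log base and the ratio's direction are not given in the sources used. Of the spots, 5666 had 1 gene symbol in the platform annotation, 152 had several and 11078 had none. Symbols were matched by Entrez identifier to a RefSeq gene table (Release 6), and all 2377 named genes matched.

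Gene values are means over clones, each the mean of its 2 adjacent spots. The mean of both arrays was tested against 0 with lmFit and eBayes (limma 3.58.1, R 4.3.3), with Benjamini-Hochberg adjustment over 2377 genes, and all members are read out of that fit. The fit was tested on simulated data, in which each array was shuffled over genes and some genes were shifted equally on both arrays. Those data held no dye effect and no local run of low spots, so they do not show how the fit behaves with either. The series text calls the arrays biological replicates without saying from how many cultures. The p-values thus concern only these samples. In the coding that matches the direction of the ratios, dye is confounded with the spread between the arrays. In the other coding a dye difference would enter the mean, and which coding matches is not known. In limma the variance of a gene is drawn towards that of all named genes. A gene's p-value therefore reflects its own spread between the arrays only in part. The number of arrays limits the precision.

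Full statistics are given for members at an unadjusted p under 0.05 in either coding and for the 2 of each family with the largest mean. Of each related list the 2 genes with the largest mean size as deposited are named, and those with array 2 turned were added after their values were seen. Members, lists and alternatives were chosen with earlier results of these data known. Alternatives were array 2 turned in sign, other centring and scaling, medians of spots, robust eBayes, clones as units, natural logs, filters on clones with a spot over 3 in size or with spots more than 0.5 apart, and each array alone. Those 3 that combine a turned array 2 with a filter or with clones as units were added after seeing the data, as was the natural-log count of opposite signs.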

Additional observations from a re-analysis of the deposited data

How the results depend on the processing

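No chemosensory gene passed adjustment under the alternatives run, except Obp84a in the fit over named clones as deposited, which called 1 of 27 member clones (mean -1.71, limma adjusted p = 0.000642) and 23 of 2833 clones in all. With array 2 also turned, that fit called 0 (limma, 121 of 2833 at an unadjusted p under 0.05). Over all genes, limma called 0 as reported, 8 once clones with any spot beyond 3 were dropped, and 5 where duplicate spots had to lie within 0.5, with 0 members among them. Members at an unadjusted p under 0.05 numbered 3 as reported and 1, Obp99a, under that last filter, which left 14 members. Over all named genes the limma counts were 136 of 2377 as reported and 86 of 1536 under that filter. Members of 1.5-fold or more numbered 0 on both arrays, 1 without replicate 1 and 4 without replicate 2. The median of the binding proteins' means was -0.077 as reported, 5.54e-05 with array 2 turned, -0.0037 after dropping clones with spots beyond 3 (which removes Obp84a) and -0.15 among clones with close spots. It ran from -0.025 to 0.0028 over the single arrays. The mean of Obp83cd turned from -0.35 to 0.48 with array 2 turned. Over single arrays Obp83cd ran from -0.84 to 0.13, Obp19d from -0.83 to 0.41 and Obp84a from -3.44 to 0.017. Of 37 alternatives with a test for the means of the 5 members at an unadjusted p under 0.05 in either coding, 35 kept the sign and the side of the threshold, and the others were those of Obp83cd and Obp84a given above. Each of these 5 genes has 1 clone, so spot medians, clone filters, clones as units and robust eBayes could not change its mean. The count of 35 is therefore no measure of how stable the means are. With array 2 turned, the unadjusted limma p of Obp99a went from 0.011 to 0.54. Members past 1.5-fold with opposite signs on the arrays numbered 0 as reported and 1, Obp19d, when values were read as natural logs. Obp84a has 1 clone, so its mean was the same in the fit over clones, where its limma standard error was 0.32 against 0.47 over genes. Apart from that and from removed clones or arrays, what caused these changes was not tested. Families with 0 members gave no value, and 1 array gave no test. The test of the ratios against 0 is itself paired, because a ratio already joins the ethanol and water RNA of an array. What signal over background would limit is not known.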

Other observations

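Another 6 clones carried a chemosensory symbol together with another, so they were left out of the set and their values belong to no single gene. The clone of Obp56c and Obp56b read -0.58 and -0.53 on array 1 and -0.100 and -0.94 on array 2, with all 4 spots negative. The clone of Gr36b and Gr36c had means of 0.25 and 0.042, that of CheB38a, CheB38b and CG33322 means of -0.17 and -0.052, and that of mim and CheB42c means of -0.064 and 0.10. The 2 clones of Obp57e and CG30148 had means of 0.035 and -0.32 on array 1 and -0.029 and 0.15 on array 2. These clones were chosen after their values were seen and were not tested.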
